A study of Mus musculus with 6 samples.

Results

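The genes that carry fatty acids into the cell and burn them in the mitochondrion were read in cardiomyocytes (CMs) of wildtype mice with and without extra SRF. They are 34 named genes for lipid supply, activation, the carnitine shuttle, β-oxidation, lipid droplets and ketone body use, taken by symbol from the 23337 genes of the count table, and all 34 were found. The list is one of known function, and its rule uses no count, although it was chosen with earlier results of these data known. SRF, serum response factor, is a transcription factor of the muscle and cytoskeleton, and the comparison asks what its overexpression changes while CMs mature.

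All mice were wildtype and kept their own Srf. In the SRF-OE group, the virus AAV9-cTNT-SRF-2A-GFP was injected at postnatal day 1, at 5e8 vg per g of body weight, and the control group, GFP, received AAV9-cTNT-GFP at the same day and dose. The troponin T promoter (cTNT) limits both transgenes to CMs, the low dose reaches part of them, and GFP+ cells were sorted at postnatal day 14. Each library therefore describes transduced CMs in a heart of mostly untransduced ones, plus whatever other cells passed the sort. PolyA RNA was amplified from 10 ng of total RNA by 8 PCR cycles before sequencing.

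The sample labels list 6 libraries. Under the header of SRF-OE replicate 1 stand gene lengths rather than reads, so counts were available for SRF-OE 2 and SRF-OE 3 and for GFP 1, GFP 2 and GFP 3. Their totals ran from 14137433 to 23159631 reads on genes, and a member gene had between 125 and 74319 reads in a library. Levels are given as CPM, reads on a gene relative to the library's total, scaled with edgeR's TMM factors.

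Srf itself stood at 360 and 748 CPM in SRF-OE 2 and SRF-OE 3, and at 67.3 and 85.1 CPM in GFP 2 and GFP 3. In the library labelled GFP 1 it was 338 CPM, close to SRF-OE 2, so that library goes against its label. In the header, Chr stands over gene symbols and the name of SRF-OE replicate 1 over lengths, so the other names may be displaced as well. If each were displaced by 1 column, the library headed GFP 1 would be an SRF-OE library and the other replicate numbers would move too. The labels cannot settle this, so libraries are called here by the names in the header. The counts over all members are given for the 5 libraries as labelled and for the 4 libraries left without GFP 1, and single genes mostly for the latter. Over the 5 libraries no gene of the table, member or not, had an adjusted p below 0.353 by edgeR. Replicate 2 of both groups is female and the other 3 libraries are male by Xist and Ddx3y, so each sex holds 1 undisputed pair. The 12 cardiomyocyte markers summed to between 102925 and 176993 CPM, and the adipocyte markers to under 1 CPM in every library.

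Long-chain fatty acids are the main fuel of the adult heart, and the switch to them from glucose and lactate is a hallmark of CM maturation after birth. Fatty acids are freed from lipoproteins, cross the membrane, are bound by a cytosolic carrier and are joined to coenzyme A. The carnitine shuttle then moves the acyl group into the mitochondrion, where a spiral of 4 reactions cuts it into acetyl-CoA and passes electrons to the respiratory chain. PPAR and estrogen-related receptors, with their PGC-1 coactivators, are known activators of these genes.

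The members were lower in SRF-OE almost throughout. Over the 5 libraries, 33 of the 34 had a negative log2 fold change, the exception being Cpt1a at 0.04, against 46.7% of the 13754 genes tested, although Lipe turned positive under upper quartile factors and Lipe and Acot2 when libraries were scaled by their totals alone. Without GFP 1 all 34 were negative, against 46.8% of 13397 genes, with Lipe positive under upper quartile factors and Cpt1a, Acot2 and Lipe positive under totals alone. The median log2 fold change of the members was -0.54 over 5 libraries, 31.4% lower, where the median of all genes tested was 0.03. Without GFP 1 it was -0.68, 37.4% lower, where that of all genes was 0.04.

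The single genes mostly did not pass the test. By edgeR's quasi-likelihood test with Benjamini-Hochberg adjustment over all genes, 0 members were lower and 0 higher at an adjusted p under 0.05 over the 5 libraries, where 0.00% of all genes were called in either direction. At an unadjusted p under 0.05, 16 of the 34 were lower, against 7.59% of all genes, and 0 were higher. This count was 3 without GFP 2, 2 without GFP 3 and 22 without GFP 1. The share of all genes was 14.0% without GFP 1 and is not given for the other fits. Leaving out an SRF-OE library leaves 1 in that group. The members' median log2 fold change was then -0.62 without SRF-OE 2 and -0.39 without SRF-OE 3. Over the 5 libraries DESeq2 called 13 members lower, but its independent filtering gave an adjusted p to 1167 genes only, 29 of them members, and called 18.3% of these genes lower. Without that filtering 1 member, Echs1, was called, against 0.135% of all genes.

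Without GFP 1, edgeR called 2 members lower, Cpt2 and Acads, against 0.970% of all genes, and 0 higher, against 1.98%. At an unadjusted p under 0.05, 22 were lower, against 14.0%. DESeq2 called 21, against 6.14% of the genes it gave an adjusted p. The 2 calls rest on few libraries: 0 members were called when GFP 2 or GFP 3 was also left out, 23 without SRF-OE 2 (11.6% of all genes lower) and 17 without SRF-OE 3 (6.95%). Nothing in the labels says that the libraries of a group come from separate hearts, so p-values measure the spread between these libraries. Without GFP 1 the 2 libraries of each group differ in sex, so those come from different mice. Their spread then includes any difference between the sexes.

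**Figure D1:**
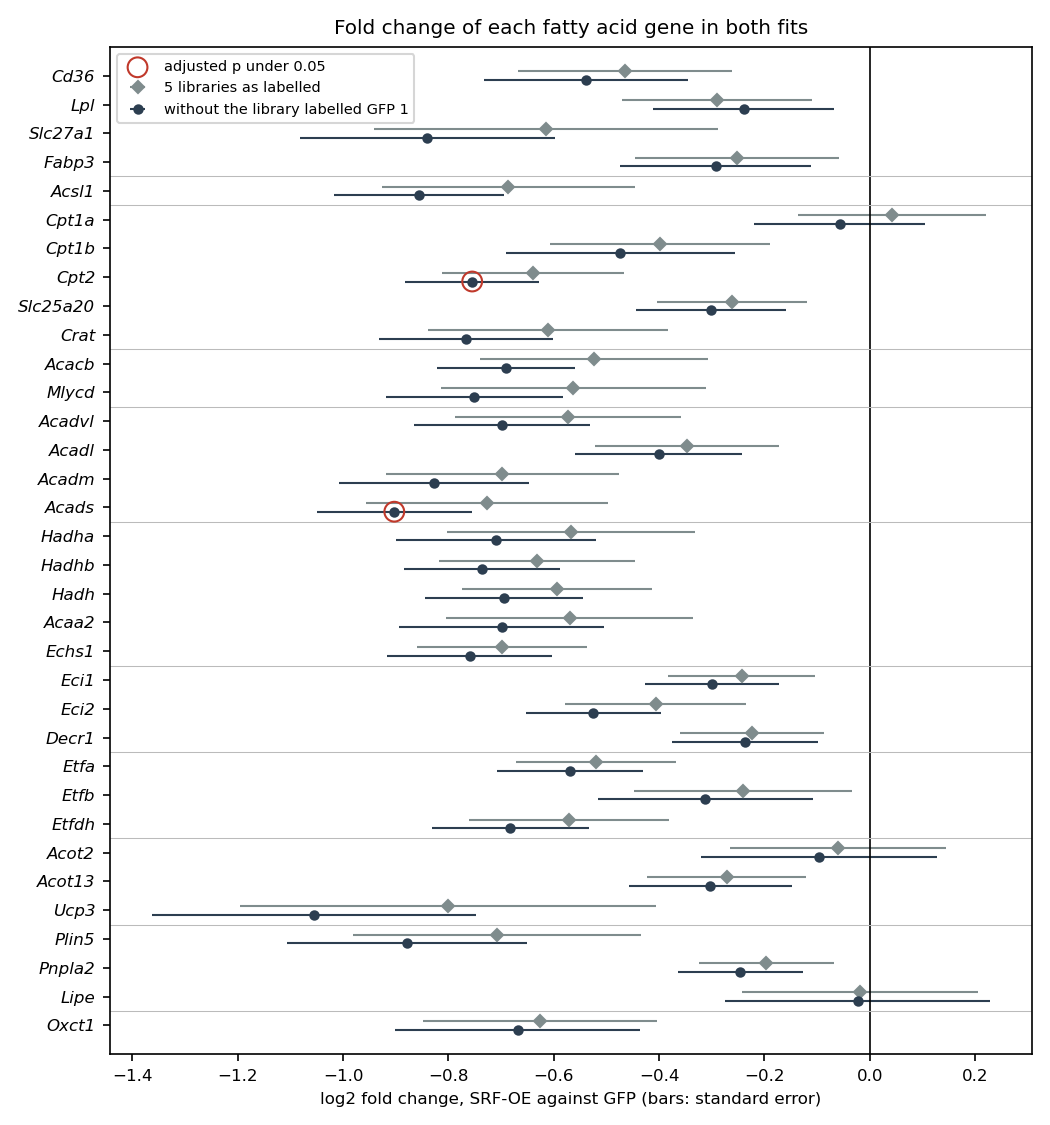
Log2 fold change of each of the 34 genes, SRF-OE against GFP, with bars of 1 standard error. Grey diamonds are the fit of 5 libraries and dark circles the fit without the library labelled GFP 1, grey lines separate the roles, and red rings mark Cpt2 and Acads, the 2 genes past an adjusted p of 0.05. Points of the enzymes of the β-oxidation spiral sit left of those of Lpl, Fabp3, Cpt1a, Acot2 and Lipe.

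The groups themselves can be read without a test. Both SRF-OE libraries lay below all 3 GFP libraries in 26 of 34 members, against 17.3% of all genes, and below GFP 2 and GFP 3 in 31, against 30.2%. Cpt1a, Acot2 and Lipe are the 3 that overlapped in both. GFP 1 lay between the SRF-OE libraries and GFP 2 and GFP 3 in 22 members, and at or below the higher SRF-OE library in 8, which are Slc27a1, Cpt1a, Mlycd, Etfb, Acot2, Ucp3, Plin5 and Lipe. SRF-OE 3, the library with the most Srf, was lower than SRF-OE 2 in 30 members, by a median of -0.20 on the log2 scale. These libraries also differ in sex, which cannot be told apart from Srf level here. The share of all genes lower in SRF-OE 3 than in SRF-OE 2 is not given.

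Within each sex the direction was the same for most members. In females, SRF-OE 2 was lower than GFP 2 in 34 of 34, with a median log2 difference of -0.52. In males, SRF-OE 3 was lower than GFP 3 in 31 of 34, with a median of -0.77, and Acot2, Cpt1a and Lipe were the exceptions. With 1 library of each group per sex these differences have no replicate check. The share of all genes lower within each pair is not given here, so the counts have no background to be read against.

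**Figure D2:**
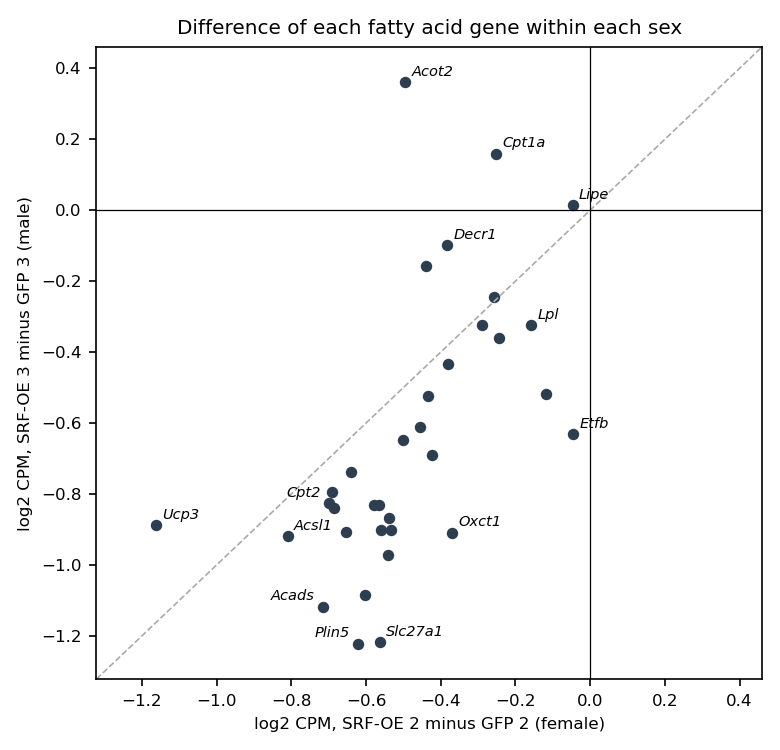
Difference in log2 CPM between SRF-OE and GFP for each of the 34 genes, in females (SRF-OE 2 minus GFP 2, x axis) and in males (SRF-OE 3 minus GFP 3, y axis), 1 point per gene, with a dashed line where both are equal. All points lie left of 0 on the x axis and 31 lie below 0 on the y axis, most of them under the dashed line.

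As a share of all reads, the 34 genes took 2.53% of SRF-OE 2 (95% Wilson interval 2.52 to 2.54), 2.18% of SRF-OE 3 (2.17 to 2.18), 2.63% of GFP 1 (2.63 to 2.64), 3.01% of GFP 2 (3.01 to 3.02) and 2.89% of GFP 3 (2.88 to 2.89). These intervals cover counting error only, since PCR copies were not marked. The summed level was 23291 and 20266 CPM in the SRF-OE libraries, 26025 CPM in GFP 1, and 32006 and 32197 CPM in GFP 2 and GFP 3. The SRF-OE libraries were lowest and GFP 1 came next on both scales.

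Cell type markers differed between the libraries too. The cardiomyocyte markers summed to 114145 and 102925 CPM in SRF-OE, 119814 in GFP 1, and 153735 and 176993 in GFP 2 and GFP 3, with 11 of 12 negative in both fits, 0 called by edgeR and 4 and 6 called lower by DESeq2. Their median log2 fold change was -0.43 over 5 libraries and -0.55 without GFP 1, with 1 and 5 of them lower at an unadjusted p under 0.05. Endothelial markers (0 of 12 negative in either fit) summed to 919 CPM in SRF-OE 2 and 708 in GFP 1 but to 363, 386 and 381 in SRF-OE 3, GFP 2 and GFP 3. Fibroblast markers summed to 926 and 462 CPM in SRF-OE against 500, 393 and 334 in GFP 1 to GFP 3. Of these 10 markers 0 were negative in either fit, and without GFP 1, 9 were higher at an unadjusted p under 0.05 and DESeq2 called 6 higher. Leukocyte markers stayed at or under 42.2 CPM. The sum of smooth muscle and pericyte markers was 794 and 598 CPM in SRF-OE and 689, 1113 and 1590 CPM in GFP, most of it Acta2. Without GFP 1, edgeR called Acta2 lower and Tagln and the fibroblast marker Ddr2 higher, and of the other markers none. SRF-OE 3 had the lowest endothelial sum, the lowest cardiomyocyte sum and the lowest sum of the 34 genes. Its fibroblast sum was above those of GFP 2 and GFP 3 and below that of GFP 1. The part of these markers in the result was not tested, and in sorted bulk RNA fewer CMs and less of a transcript per CM cannot be told apart.

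**Figure D3:**
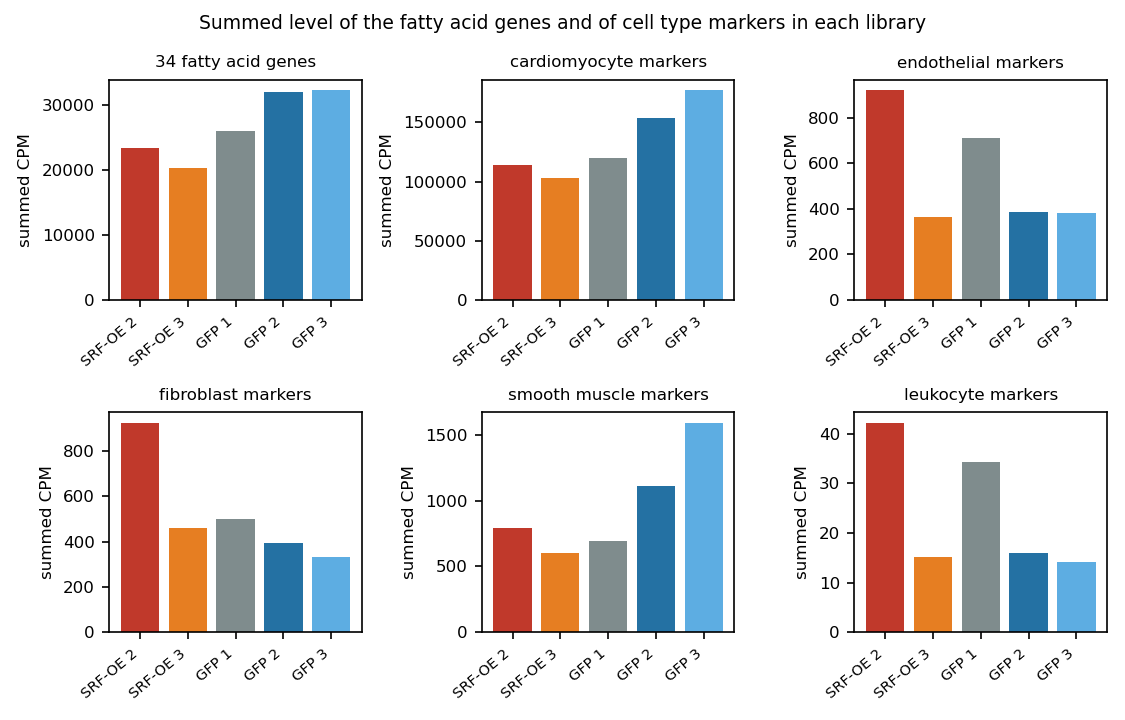
Summed CPM of the 34 fatty acid genes and of 5 lists of cell type markers in each of the 5 libraries, 1 bar per library with every axis starting at 0. The fatty acid genes and the cardiomyocyte markers are lowest in SRF-OE 3 and highest in GFP 3, while endothelial and leukocyte markers are highest in SRF-OE 2 and GFP 1.

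Promoter sequence is shown for 6 members, to set the 2 called genes, Cpt2 and Acads, beside Acadm, a classical PPARα target, Ucp3, the member with the most negative log2 fold change, Hadha, whose window overlaps that of Hadhb, and Cpt1a, which was not lower over 5 libraries. Each window runs from 250 bases before to 50 after the RefSeq start on GRCm38.p6, written 5′ to 3′ on the gene's strand. All motifs were searched on both strands, and capitals mark AGGTCA, the nuclear receptor half-site, or its reverse complement TGACCT. The windows are chr4:107923540-107923839 on the minus strand for Cpt2, chr5:115119297-115119596 on the minus strand for Acads, chr3:153944594-153944893 on the minus strand for Acadm, chr7:100472741-100473040 on the plus strand for Ucp3, chr5:30154931-30155230 on the minus strand for Hadha and chr19:3323051-3323350 on the plus strand for Cpt1a.
Cpt2: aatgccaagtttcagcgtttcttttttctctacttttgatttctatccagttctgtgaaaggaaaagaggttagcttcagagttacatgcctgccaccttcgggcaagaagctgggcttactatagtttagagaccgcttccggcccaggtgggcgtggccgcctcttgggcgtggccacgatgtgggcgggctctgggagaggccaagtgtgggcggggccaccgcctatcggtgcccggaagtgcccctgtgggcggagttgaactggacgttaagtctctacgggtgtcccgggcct
Acads: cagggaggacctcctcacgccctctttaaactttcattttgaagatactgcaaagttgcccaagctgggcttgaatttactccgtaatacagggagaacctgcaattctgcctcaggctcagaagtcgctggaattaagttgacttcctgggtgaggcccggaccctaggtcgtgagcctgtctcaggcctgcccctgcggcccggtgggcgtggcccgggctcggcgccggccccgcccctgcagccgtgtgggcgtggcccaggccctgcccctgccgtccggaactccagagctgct
Acadm: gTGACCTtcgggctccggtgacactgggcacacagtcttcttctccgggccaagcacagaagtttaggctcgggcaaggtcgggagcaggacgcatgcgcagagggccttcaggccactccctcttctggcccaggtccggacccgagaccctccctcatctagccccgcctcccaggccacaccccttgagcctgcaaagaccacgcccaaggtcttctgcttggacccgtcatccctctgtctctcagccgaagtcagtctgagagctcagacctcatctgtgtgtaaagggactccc
Ucp3: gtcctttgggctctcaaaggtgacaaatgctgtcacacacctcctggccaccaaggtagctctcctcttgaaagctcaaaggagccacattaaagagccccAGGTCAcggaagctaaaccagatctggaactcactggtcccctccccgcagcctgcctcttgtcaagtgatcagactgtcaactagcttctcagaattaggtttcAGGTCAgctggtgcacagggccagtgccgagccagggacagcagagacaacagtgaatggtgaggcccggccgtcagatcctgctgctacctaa
Hadha: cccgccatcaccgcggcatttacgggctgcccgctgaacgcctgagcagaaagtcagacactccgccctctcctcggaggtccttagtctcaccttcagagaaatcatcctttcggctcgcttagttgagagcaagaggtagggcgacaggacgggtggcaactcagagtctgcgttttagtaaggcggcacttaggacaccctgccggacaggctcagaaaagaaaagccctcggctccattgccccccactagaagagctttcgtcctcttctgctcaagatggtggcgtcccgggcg
Cpt1a: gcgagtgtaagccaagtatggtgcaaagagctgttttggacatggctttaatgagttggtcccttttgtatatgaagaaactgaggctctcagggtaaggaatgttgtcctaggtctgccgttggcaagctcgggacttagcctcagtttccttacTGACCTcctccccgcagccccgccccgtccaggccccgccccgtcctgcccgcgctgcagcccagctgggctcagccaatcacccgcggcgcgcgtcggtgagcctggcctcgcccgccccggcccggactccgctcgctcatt

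Of the members, 28 had a RefSeq window, 33 windows in all. The half-site on either strand was in 9 of these windows, belonging to Acacb, Acadm, Acadvl, Cd36, Cpt1a, Echs1, Plin5 and Ucp3, where 16.3% of all 32851 windows held it. In Ucp3 it stood 149 and 44 bases before the start, in Acadm 249 and in Cpt1a 94 bases before it. The estrogen-related receptor element TCAAGGTCA, which contains the half-site, was in 0 of 33 and in 0.423% of all windows. The direct repeat of AGGTCA, with 1 base of any kind between both copies, was in 0 of 33 and in 0.04% of all windows, and the CArG box that SRF binds in 0 of 33 and in 1.63%. Cpt2 and Acads, the called genes, held none of the 4 motifs, and Cpt1a held a half-site. A match describes letters in the window and not a bound site, and a window without one says nothing of sites elsewhere.

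**Figure D4:**
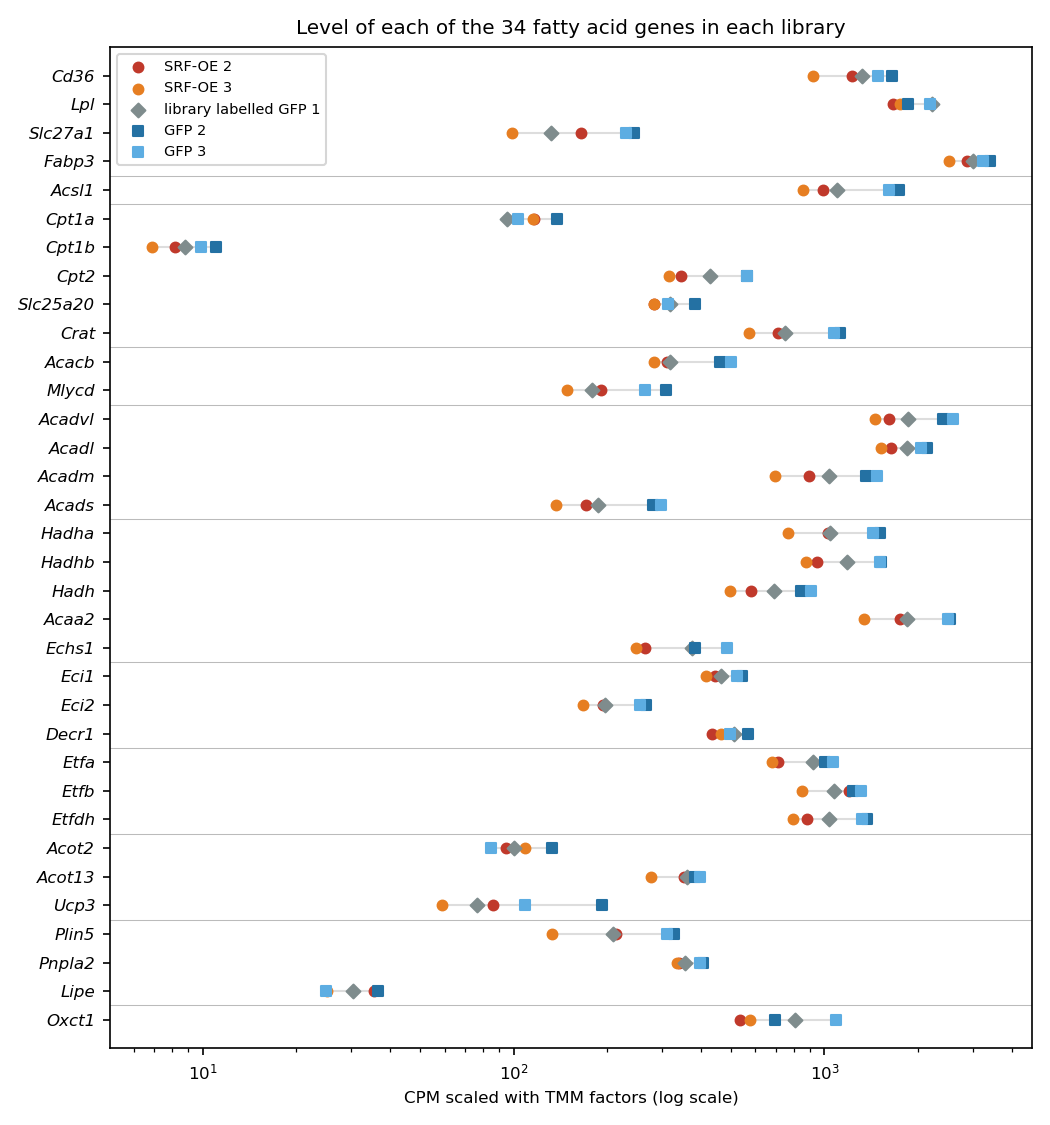
Level of each of the 34 genes in each library, in CPM scaled with TMM factors on a log axis, with 1 symbol per library and the genes grouped by role between grey lines. Both SRF-OE libraries lie left of GFP 2 and GFP 3 in 31 rows, and the library labelled GFP 1 lies between them in 22.

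The 4 genes of lipid supply were all negative in both fits, with 0 calls by edgeR in either. Without GFP 1, 2 were lower at an unadjusted p under 0.05 (14.0% of all genes) and 2 were called lower by DESeq2 (6.14%). Lpl encodes the lipase that frees fatty acids from lipoproteins, and it was 1659 and 1749 CPM in SRF-OE 2 and 3, 2210 in GFP 1, and 1850 and 2190 in GFP 2 and 3. The groups did not overlap, yet they differed by a log2 fold change of only -0.24 without GFP 1 (standard error, SE, 0.17, edgeR's quasi-likelihood adjusted p = 0.398). Cd36, the fatty acid translocase, read 1227 and 921 CPM against 1316, 1644 and 1487 CPM, a log2 fold change of -0.47 (adjusted p = 0.367) and of -0.54 without GFP 1 (adjusted p = 0.139). SRF-OE 3 was the low library there. Slc27a1, the fatty acid transport protein FATP1, stood at 165 and 98.6 CPM in SRF-OE and at 132, 244 and 229 CPM in GFP. GFP 1 fell between both SRF-OE libraries, and the log2 fold change moved from -0.61 to -0.84 without it (adjusted p = 0.0918).

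Fabp3, the fatty acid binding protein of heart muscle, had the highest level per length of the members, 4700 RPKM on average. Its values were 2881 and 2516 CPM in SRF-OE and 3006, 3409 and 3227 CPM in GFP, without overlap, and its log2 fold change was -0.25 over 5 libraries and -0.29 without GFP 1 (SE 0.18, adjusted p = 0.335). Fabp3 thus had one of the smaller differences in the list. Acsl1, which activates long-chain fatty acids to acyl-CoA, read 988 and 852 CPM against 1099, 1732 and 1611 CPM. Both SRF-OE libraries were under GFP 1, and far under the other GFP libraries, with a log2 fold change of -0.69 over 5 libraries and -0.86 without GFP 1, 44.7% lower (SE 0.16, adjusted p = 0.0526).

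Of the 5 genes of the carnitine shuttle, 1 was called, the inner enzyme, and the outer enzyme gave the smallest and the least certain values. Cpt1a and Cpt1b are the liver and muscle forms of the outer enzyme, which sets the rate of entry. Cpt1a was 116 and 115 CPM in SRF-OE and 95.4, 138 and 103 CPM in GFP, so the SRF-OE libraries lay inside the GFP range. Cpt1b read 8.15 and 6.86 CPM in SRF-OE against 8.79, 11.01 and 9.87 CPM in GFP, 125 to 240 reads a library. Its level is uncertain, because 81.4% of its exonic bases on GRCm38 also belong to the readthrough gene Gm44502, which stands in the count table under an older name with 0 reads in all 5 libraries, and how shared reads were counted is not given in the sources used here.

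Per length, Cpt1a exceeded Cpt1b in every library, 9.59-fold and 11.3-fold in SRF-OE and 7.30-fold, 8.45-fold and 7.04-fold in GFP. The log2 ratio of Cpt1b to Cpt1a was -3.38 ± 0.17 (SD, n = 2) in SRF-OE and -2.92 ± 0.14 (SD, n = 3) in GFP. The difference of -0.46 gave p = 0.1 in a two-sided exact permutation test, the smallest p that 2 libraries against 3 allow. Without GFP 1 it was -0.43 with an exact p of 0.333, again the smallest possible. Both ratios carry the uncertainty of Cpt1b.

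Cpt2, the inner enzyme that rebuilds acyl-CoA inside the mitochondrion, lies on chromosome 4 from 107903981 to 107923610 of GRCm38. It had 347 and 317 CPM in SRF-OE, 427 CPM in GFP 1, and 563 and 562 CPM in GFP 2 and GFP 3. GFP 1 stood apart from both pairs, and each pair was tight. Cpt2 was 40.7% lower without GFP 1, a log2 fold change of -0.75 (SE 0.13, edgeR's quasi-likelihood adjusted p = 0.0495), and -0.64 over 5 libraries (SE 0.17, adjusted p = 0.353). Slc25a20, the carnitine carrier between both, had 284 and 282 CPM against 318, 385 and 315 CPM and a log2 fold change of -0.30 without GFP 1 (adjusted p = 0.227). Crat, which returns acyl groups to carnitine, was 712 and 571 CPM in SRF-OE and 748, 1119 and 1073 CPM in GFP, 41.2% lower without GFP 1 (adjusted p = 0.0607). GFP 1 was near SRF-OE 2 for Crat and near GFP 3 for Slc25a20.

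The pair that makes and removes malonyl-CoA, the inhibitor of the outer carnitine enzyme, had negative values in both fits. Acacb, which makes it, read 312 and 282 CPM against 318, 462 and 502 CPM, with a log2 fold change of -0.52 (adjusted p = 0.358) and -0.69 without GFP 1 (adjusted p = 0.0529). Mlycd, which breaks it down, read 192 and 148 CPM against 179, 308 and 265 CPM, with -0.56 (adjusted p = 0.371) and -0.75 (adjusted p = 0.0627). For both genes GFP 1 was at the level of SRF-OE 2, and GFP 2 and GFP 3 were above.

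The 4 acyl-CoA dehydrogenases open the spiral, each on its own chain length. Acadvl, for very long chains, had 1617 and 1453 CPM in SRF-OE and 1852, 2413 and 2586 CPM in GFP. Acadl, for long chains, had 1642 and 1518 CPM against 1838, 2139 and 2051 CPM. Neither gene overlapped between groups, and 42.9% of Acadvl's exonic bases overlap Dvl2. Acadm, for medium chains, had 894 and 695 CPM against 1034, 1358 and 1472 CPM. Acads, for short chains, on chromosome 5 from 115110299 to 115119346, had 171 and 137 CPM against 187, 281 and 298 CPM.

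In the fit without GFP 1 the log2 fold changes ran from -0.40 for Acadl (SE 0.16, adjusted p = 0.168), through -0.70 for Acadvl (0.17, adjusted p = 0.0686) and -0.83 for Acadm (0.18, adjusted p = 0.0616), to -0.90 for Acads (0.15, adjusted p = 0.0484), 46.5% lower. Over the 5 libraries they were -0.35, -0.57, -0.70 and -0.73 in the same order, with adjusted p from 0.353 to 0.401. Acadm and Acads had larger differences than Acadvl and Acadl, but Acadvl had a larger one than Acadl, so the order did not follow chain length throughout. Whether these values differ from each other was not tested.

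The 5 genes of the later steps of the spiral had closely similar values. Hadha and Hadhb encode the α and β subunits of the mitochondrial trifunctional protein, which carries out the last 3 reactions on long chains, and their starts lie 85 bases apart on opposite strands of chromosome 5. Hadha was 1025 and 766 CPM in SRF-OE and 1039, 1511 and 1430 CPM in GFP. Hadhb was 943 and 869 CPM against 1181, 1522 and 1508 CPM. SRF-OE 2 almost met GFP 1 for Hadha but not for Hadhb. Their log2 fold changes without GFP 1 were -0.71 and -0.74 (adjusted p = 0.0815 and 0.0565).

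Hadh, the dehydrogenase of shorter 3-hydroxyacyl chains, had 579 and 497 CPM in SRF-OE and 687, 842 and 907 CPM in GFP. Acaa2, the thiolase that releases acetyl-CoA, had 1749 and 1338 CPM against 1842, 2530 and 2501 CPM. Echs1, the hydratase of short chains, had 264 and 248 CPM against 376, 384 and 486 CPM. All 5 genes of these steps had both SRF-OE libraries below every GFP library, against 17.3% of all genes. For Echs1 GFP 1 sat with GFP 2 rather than with the SRF-OE libraries. Without GFP 1 the 5 log2 fold changes spanned -0.69 to -0.76 (adjusted p from 0.0565 to 0.0873), and over 5 libraries -0.57 to -0.70 (adjusted p from 0.353 to 0.358). All 5 passed as lower in both fits at an unadjusted p of 0.05, against 7.59% of all genes over 5 libraries and 14.0% without GFP 1.

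The 3 enzymes that prepare unsaturated fatty acids had smaller log2 fold changes. Eci2, an enoyl-CoA isomerase, was 194 and 167 CPM in SRF-OE and 196, 266 and 255 CPM in GFP, with a log2 fold change of -0.53 without GFP 1 (adjusted p = 0.0701). Its relative Eci1 ran from 417 to 544 CPM over the libraries and Decr1, the dienoyl-CoA reductase, from 436 to 569 CPM, with -0.30 (adjusted p = 0.189) and -0.24 (adjusted p = 0.308). In none of the 3 did the groups overlap, although GFP 1 and SRF-OE 2 were nearly level for Eci2.

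Electrons from the dehydrogenases pass through the electron transfer flavoprotein, of Etfa and Etfb, to the dehydrogenase Etfdh in the inner membrane. Etfa read 709 and 677 CPM in SRF-OE and 916, 1003 and 1062 CPM in GFP, a log2 fold change of -0.52 over 5 libraries and -0.57 without GFP 1 (adjusted p = 0.0704). Etfdh read 881 and 792 CPM against 1032, 1373 and 1321 CPM, with -0.57 and -0.68 (adjusted p = 0.0616 without GFP 1). In both genes every GFP library was above every SRF-OE library. Etfb ranged from 848 to 1314 CPM, overlapped between groups through GFP 1 alone and had -0.31 without it (adjusted p = 0.358), and 53.0% of its exonic bases overlap Gm45233.

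Ucp3, an uncoupling protein of the inner membrane that is raised by fatty acids, had the largest difference and the largest error. It was 85.8 and 58.7 CPM in SRF-OE and 76.3, 192 and 109 CPM in GFP, with GFP 1 inside the SRF-OE range and GFP 2 far above the rest. The log2 fold change was -0.80 (SE 0.39, adjusted p = 0.395), and -1.06 without GFP 1 (SE 0.31, adjusted p = 0.0938), or 51.9% lower. The thioesterases, which split acyl-CoA again, were close between groups. Acot13 ranged from 278 to 398 CPM with -0.30 (adjusted p = 0.255), and Acot2, whose reads cannot be told with certainty from those of its near copy Acot1, ranged from 84.9 to 133 CPM with -0.10 (adjusted p = 0.808).

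Of the 3 genes of the lipid droplet, the coat protein had the most negative value. Plin5, the perilipin that ties droplets to mitochondria in heart, had 213 and 133 CPM in SRF-OE and 209, 328 and 311 CPM in GFP. GFP 1 fell just under SRF-OE 2, and Plin5 had a log2 fold change of -0.71 with it and, 45.6% lower, of -0.88 without it (SE 0.23, adjusted p = 0.0785). Pnpla2, the first triglyceride lipase (ATGL), ranged from 336 to 406 CPM with -0.25 (adjusted p = 0.232). Lipe, the hormone-sensitive lipase, ranged from 24.9 to 36.8 CPM with -0.02 (adjusted p = 0.964), and its groups overlapped.

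Oxct1, which starts the use of ketone bodies, was 536 and 578 CPM in SRF-OE and 802, 692 and 1086 CPM in GFP. The groups were apart and, unlike for most members, GFP 1 lay between GFP 2 and GFP 3. Its log2 fold change was -0.63 (SE 0.22, adjusted p = 0.353) and -0.67 without GFP 1 (SE 0.23, adjusted p = 0.131).

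Genes of related pathways outside the 34 were read by the same fit without GFP 1. Their lists were chosen with earlier results of these data known. A list of 23 other genes held mainly acyl-CoA enzymes, but also Pdk2, Pdk4, Ucp2 and Hibadh, which are not. Of these 23, 21 were negative and 2 called lower by edgeR and 12 by DESeq2, with a median log2 fold change of -0.54. The 2 were Acad11, an acyl-CoA dehydrogenase, at 89.8 and 78.3 CPM against 104, 152 and 173 CPM (-0.95, adjusted p = 0.0473), and Hibadh, an enzyme of valine breakdown, at 252 and 257 CPM against 342, 411 and 472 CPM (-0.79, adjusted p = 0.0486). Of 17 peroxisomal oxidation genes, 16 were negative, with a median of -0.42, and Scp2, a thiolase and lipid carrier, was called lower (-0.74, adjusted p = 0.0483), while DESeq2 called 3. Over the 5 libraries edgeR called 0 genes of these lists. The other 13 uptake and activation genes had a median of 0.17 and 0 calls by edgeR in either direction, 3 being lower and 4 higher at an unadjusted p under 0.05 and 2 and 3 by DESeq2. They ran from Slc22a5, the carnitine importer, at -0.89 (adjusted p = 0.0565) to Fabp4, the fatty acid binding protein of adipocytes and endothelium, at 1.19 (adjusted p = 0.0930). Fabp4 was highest in SRF-OE 2 and GFP 1, at 257 and 292 CPM, as were the endothelial markers.

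Of 18 triglyceride storage genes, edgeR called 4 lower without GFP 1 and 0 over the 5 libraries, where the same 4 had an adjusted p of 0.353, and DESeq2 called 6 without GFP 1. Dgat2, which makes triglyceride, had 275 and 230 CPM in SRF-OE and 358, 491 and 545 CPM in GFP, a log2 fold change of -1.03 (adjusted p = 0.0473). Gpam, the first acyltransferase of glycerolipid synthesis, had 185 and 177 CPM against 245, 365 and 326 CPM (-0.93, adjusted p = 0.0473). Fitm2, which serves droplet formation, had 82.8 and 67.2 CPM against 110, 183 and 193 CPM (-1.32, adjusted p = 0.0423). In these 3 genes GFP 1 lay between the SRF-OE libraries and the other GFP libraries. Lpin1, the phosphatidate phosphatase, was lower too (-0.89, adjusted p = 0.0484). Over the whole list the median was -0.31, with 15 negative.

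The nearest energy pathways give the scale for the 34. The 20 genes of pyruvate oxidation and the TCA cycle had a median log2 fold change of -0.54 over 5 libraries and -0.66 without GFP 1, and all 20 were negative in both fits, close to the values of the members. For 76 oxidative phosphorylation genes the median was -0.32 and -0.33, with 68 negative in the second fit. For glycolysis it was -0.21 over 20 genes and -0.27 over 19, with Pfkm called lower. edgeR called 0 TCA cycle and 0 oxidative phosphorylation genes in either fit, while 19 and 29 of them were lower at an unadjusted p under 0.05 without GFP 1, and DESeq2 called 17 and 21 lower. No test of the members against these lists was made, so the values stand side by side.

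**Figure D5:**
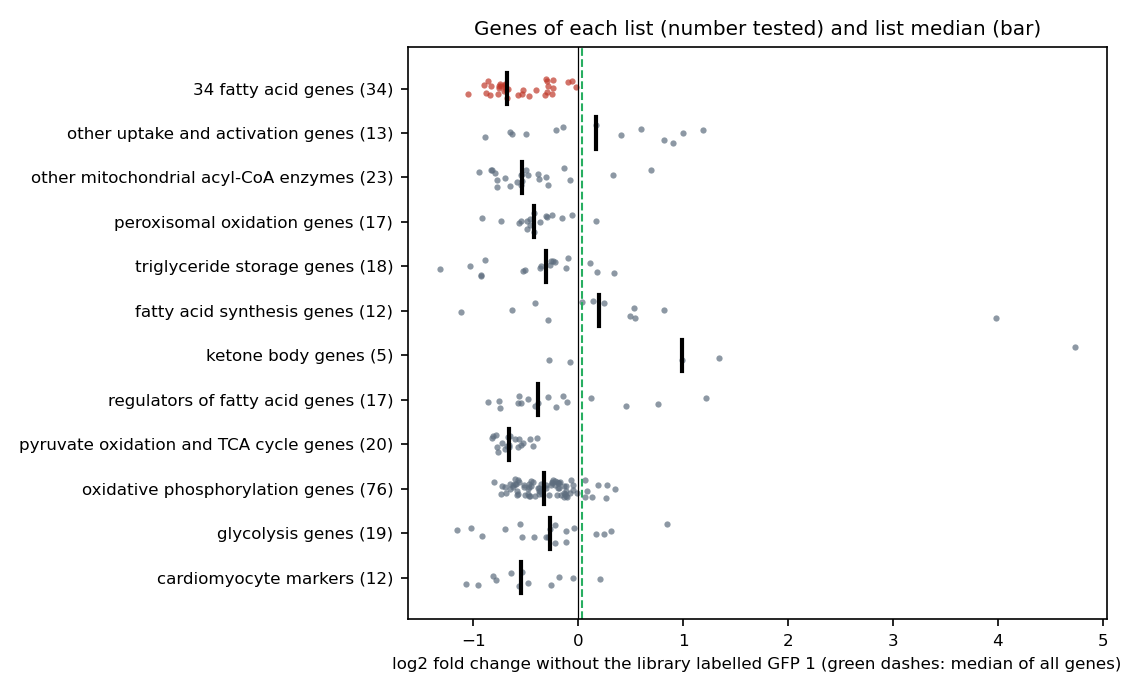
Log2 fold change without the library labelled GFP 1 of each gene tested (points, spread vertically for visibility), for the 34 fatty acid genes, the other lists of the pathway, 3 energy pathways and the cardiomyocyte markers, with the number of genes tested in brackets. Black bars are list medians and the green dashed line is the median of all genes tested, 0.04. The bars of the 34 genes (-0.68) and of the TCA cycle (-0.66) lie near each other, left of oxidative phosphorylation (-0.33) and glycolysis (-0.27).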

How the data were processed

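RNA of GFP+ CMs sorted from SRF-OE and GFP mice was sequenced. Reads were aligned by the authors to mm10 using STAR 2.5.3a and counted per gene with featureCounts of Subread 1.5.2, after CASAVA 1.8, by the submitters' processing notes, and deposited raw counts in 1 table. Settings for strand and multiply mapped reads are not given in the sources used here, so overlapping and near-identical genes are uncertain. The column headed as SRF-OE replicate 1 has 0 zeros, and 73.8% of 20929 genes compared lie within 5% of an annotated GRCm38 length, so it was used as gene length (for RPKM). 0 columns were left unused.

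Counts were analysed in R 4.3.3 with edgeR 4.0.16 (filterByExpr, TMM factors, glmQLFit, glmQLFTest, Benjamini-Hochberg adjustment, cutoff 0.05), and all 34 members passed the filter. CPM carry the factors of the 5 libraries. Alternatives were DESeq2 1.42.0, other scalings, no filter, a replicate block and leaving out each library. Library totals only, DESeq2 without independent filtering and leaving out libraries of the 4 were added after seeing the data. The fits were tested on simulated data. Members and lists were chosen with earlier results of these data known. The set without GFP 1 was also chosen with them known, from the Srf level of that library. All members are named, with per-library values for those at an unadjusted p under 0.05 in either fit and for 10 fixed genes. From other pathway lists the genes past the cutoff are named, or else the genes of the lowest and highest fold change with at least 10 CPM. Of 321 list genes 315 matched by symbol, 5 by an older symbol and 1 did not. Promoter windows are RefSeq's, overlaps those of the GRCm38 annotation.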

Additional observations from a re-analysis of the deposited data

How the results depend on the processing

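Over the 5 libraries the count of members called lower was 0 under edgeR's other scalings and without its filter, but 13 with DESeq2 (18.3% of all genes with an adjusted p), 1 with DESeq2 without independent filtering (0.135%) and 7 with a replicate block (3.14%). Leaving out GFP 1 gave 2 (0.970%), and leaving out GFP 2 or GFP 3 gave 0 (0% of all genes). The median log2 fold change of the members was -0.66 with the block, -0.35 with library totals only and -0.68 to -0.39 when 1 library was left out. Totals only moved the median of all genes to 0.21, and relative to it the members' median was -0.56, against -0.57 in the main scaling. Without GFP 1 the count of 2 became 21 with DESeq2 (6.14% of all genes with an adjusted p) and 19 without independent filtering (3.22%). It was 4 with DESeq2's size factors (1.54%), 0 with upper quartile factors (0.0672%) and 0 with totals only (0.455%). With no low-count filter it was 21 (6.09%) and with the block 7 (2.93%). The median in that set was -0.44 with totals only and -0.76 to -0.52 when 1 library more was left out. The cause of these shifts was not tested. The replicate numbers join 2 pairs only. Deviations from the group means correlated across genes at 0.410 for number 2 and -0.0860 for number 3, and no source ties equal numbers to a litter or day. The deviations of the 2 SRF-OE libraries mirror each other by construction, and the GFP mean includes GFP 1. These correlations therefore cannot show whether equal numbers share a batch. Number 2 is female and number 3 male in both groups, so a block on the number is also one on sex, and they cannot be told apart. The 7 members called with the block were Slc27a1, Acsl1, Cpt2, Mlycd, Acads, Ucp3 and Plin5 in both sets, with adjusted p from 0.0193 (Ucp3) to 0.0438 (Acsl1) over 5 libraries and from 0.0223 (Ucp3) to 0.0484 (Slc27a1) without GFP 1. GFP 1 is the only library of its number, so the block gives it a term of its own. The group difference then rests on the same 4 libraries in both sets, and their agreement is no check on GFP 1.

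Of the single members, 3 changed sign. Over 5 libraries Cpt1a was -0.047 with the replicate block and -0.057 (without GFP 1) to 0.22 when 1 library was left out. Lipe was 0.031 with upper quartile factors, 0.16 with totals only and -0.29 to 0.20 when 1 library was left out, and Acot2 was 0.12 with totals only and -0.20 to 0.14. In the set without GFP 1, Cpt1a was 0.17 with totals only and -0.27 to 0.15 when 1 library more was left out. There Lipe was 0.036 with upper quartile factors, 0.20 with totals only and -0.30 to 0.27 with 1 library fewer, and Acot2 was 0.12 with totals only and -0.40 to 0.25. Of the values for single members under other settings, 375 over 5 libraries and 260 without GFP 1 kept their direction and side of the cutoff, 23 and 98 moved past it, and 0 and 8 fell short of it. Every member had at least 125 reads in each library, and the spread rests on 2 or 3 libraries a group.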

Other observations

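Ketone body genes outside the 34 had values on both sides of 0. Bdh1, the dehydrogenase that oxidises 3-hydroxybutyrate ahead of Oxct1, read 5.61 and 44.9 CPM in SRF-OE 2 and SRF-OE 3, 51.9 CPM in the library labelled GFP 1, and 0.78 and 1.18 CPM in GFP 2 and GFP 3. SRF-OE 2, SRF-OE 3 and GFP 1 were all above GFP 2 and GFP 3, and GFP 1 was the highest. The log2 fold change was 0.48 over the 5 libraries (SE 1.63, adjusted p = 0.902 by edgeR's quasi-likelihood test) and 4.73 without GFP 1 (SE 1.06, adjusted p = 0.0632). Slc16a1, a monocarboxylate transporter, ran from 406 to 553 CPM with -0.28 without GFP 1 (adjusted p = 0.253). Of 5 such genes 2 were negative, the median was 0.99, and edgeR called 0 in either direction, with 3 higher and 0 lower at an unadjusted p under 0.05 and 2 called higher by DESeq2.

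The 12 fatty acid synthesis genes were divided, with 3 lower and 3 higher at an unadjusted p under 0.05 without GFP 1, 2 and 1 by DESeq2, and a median of 0.19. Scd1, the stearoyl-CoA desaturase, was called higher, at 3.18 and 9.01 CPM in SRF-OE, 2.42 CPM in GFP 1, and 0.32 and 0.47 CPM in GFP 2 and GFP 3 (3.98, adjusted p = 0.0489), but not over the 5 libraries (2.47, adjusted p = 0.353). The more abundant Scd2 and Fasn, chosen after their values were seen, had -1.12 (adjusted p = 0.108) and -0.63 (adjusted p = 0.0890) without GFP 1. Of 17 regulators of fatty acid genes 13 were negative, with a median of -0.38 and 0 calls by edgeR, 6 being lower and 1 higher at an unadjusted p under 0.05 and 4 called lower by DESeq2. Esrra, the estrogen-related receptor ERRα, was most negative, at 74.98 and 54.2 CPM against 71.4, 117 and 119 CPM (-0.86, adjusted p = 0.0565). Mlxipl, the carbohydrate response factor ChREBP, read 49.2 and 65.5 CPM against 66.7, 30.6 and 53.8 CPM (0.45, adjusted p = 0.351). Mlxipl had the highest fold change of the regulators with a mean of at least 10 CPM. Below that level, Pparg had 1.22 (adjusted p = 0.0815), Ppard 0.76 (adjusted p = 0.211) and Esrrb -0.56 (adjusted p = 0.158). Pparg was the 1 regulator higher at an unadjusted p under 0.05. GFP 1 was nearer to the SRF-OE libraries than to GFP 2 and GFP 3 for Esrra.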
